A study of Mus musculus with 9 samples.

Results

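Dtx3l, Parp9, Kat2a, Kat2b, Sirt7, Hat1 and Rbbp7 encode enzymes, and partners of enzymes, that have been proposed to add or remove modifications at lysine 91 of histone H4. They were taken by name and are 7 of the 24100 genes in the deposited table. All 7 matched 1 row each, and all 7 passed the filter on low counts, as did 14761 genes in total. The libraries came from cells that the labels call neural, made by differentiation of mouse embryonic stem cells. A further tag shared by the columns of all libraries was not interpreted, so no stage of the differentiation is given here. In each group the cells stably expressed an HA-tagged histone H4 from a PiggyBAC construct, a transposon vector that inserts into the genome. The groups were H4K91R, in which arginine replaced lysine 91 of the tagged histone, H4K91Q, in which glutamine replaced it, and H4WT, with the unchanged tagged histone. Each group had 3 libraries of polyadenylated RNA, and the design asked which genes change with the mutant histones. The labels do not say whether the libraries of a group are separate differentiations or lines, or whether a line is 1 clone, so the p-values measure only the spread between these libraries.

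Lysine 91 lies in the globular part of H4, where H4 meets the H2A-H2B dimers of the nucleosome. In human cells, DTX3L, a ubiquitin ligase of the Deltex family, works with its ADP-ribosyltransferase partner PARP9 and ubiquitylates this lysine in the response to DNA damage. Human KAT2A, an acyltransferase of the SAGA and ATAC coactivator complexes, glutarylates it, and the deacylase SIRT7 removes the glutaryl group. KAT2B is the paralog of KAT2A. HAT1 acetylates newly made H4 together with its histone-binding partner RBBP7, and in budding yeast acetylation of lysine 91 was found on H4 bound to the nuclear Hat1 complex.

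The lysine codon itself is shown first, because it is the position that the mutant transgenes replace and that the enzymes act on. In 13 of 13 mouse H4 genes with a transcript in GENCODE M21 (GRCm38), residue 91, counted without the first methionine, was encoded by AAG. Examples of 27 bases around it follow, with the lysine codon in capitals, from H4c9 on chromosome 13 and H4c14 on chromosome 3.
H4c9: gtctacgcgctcAAGcgccagggccgt
H4c14: gtgtacgctctcAAGcgccagggccgc
The labels name no change to these endogenous genes, and gene counts cannot tell reads of the transgene from theirs, so the counts do not check the labels. The summed level of the H4 rows was 13.5 to 17.3 CPM (read counts relative to the library size, scaled by TMM, which sets library sizes by the bulk of genes) in H4K91R and 13.0 to 13.2 CPM in H4K91Q, against 27.7 to 35.0 CPM in H4WT. Most mRNA of the replication-dependent H4 genes carries no poly(A) tail, and these libraries were made from polyadenylated RNA. Of 8 tested H4 rows, 3 were lower in H4K91R and 4 in H4K91Q than in H4WT; H4c18 had log2 changes of -2.75 (adjusted p 7.17e-06, edgeR) and -3.07 (adjusted p 2.98e-06).

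Total counts ran from 8970553 to 28887501 per library. All 10 neuron markers tested were higher in each mutant than in H4WT, with a median log2 change of 1.93 in H4K91R and 1.54 in H4K91Q. They stood at summed levels of 974.5 to 1213 CPM in H4K91R and 777.4 to 829.4 CPM in H4K91Q, against 233.7 to 319.9 CPM in H4WT. Of 10 neural progenitor markers, 8 were higher and 1 lower in H4K91R (median 1.80), and 7 higher and 2 lower in H4K91Q (median 1.36). Their sum, 1884 to 1987 CPM in H4K91R and 1596 to 1648 CPM in H4K91Q, against 1899 to 2300 CPM in H4WT, did not follow these counts, since Vim, a lower member, averaged 1159, 1072 and 1743 CPM of it. Of 10 smooth muscle and mesenchyme markers, 3 were higher and 6 lower in H4K91R (median -2.26), and 2 higher and 6 lower in H4K91Q (median -2.42). Acta2, smooth muscle actin, had log2 changes of -2.98 and -3.34, while the matrix genes Postn (0.48 and 1.08) and Lum (1.30 and 2.43) were higher. The sum of this list was 5749 to 6944 CPM in H4K91R and 6066 to 6627 CPM in H4K91Q, against 9473 to 9668 CPM in H4WT. Of 6 endothelial markers, 1 was higher and 1 lower in H4K91R, and 2 higher and 1 lower in H4K91Q, with sums of 46.5 to 55.2, 50.6 to 57.6 and 49.4 to 57.7 CPM in H4K91R, H4K91Q and H4WT. Every neuron and progenitor marker had counts in every group. In such samples fewer cells of a type and less RNA per cell cannot be told apart, and the part of the cell mix in the results on the 7 genes was not tested. A gene passed where its p from edgeR's quasi-likelihood test, Benjamini-Hochberg adjusted over the 14761 genes, was under 0.05. The share of all genes that passed is the background against which the count of the 7 is read.

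Of the 7 genes, 1 passed the test in H4K91R against H4WT, a lower gene, where 46% of all tested genes passed, 20.9% as higher and 25.1% as lower. In H4K91Q against H4WT, 3 of 7 passed, each of them higher, where 46.3% of all genes did, 22.5% higher and 23.8% lower. Between H4K91Q and H4K91R, 1 of 7 passed, higher in H4K91Q, where 5.16% of all genes did, 2.37% higher and 2.78% lower. In the joint test over the 3 groups, 3 of 7 passed, against 50.6% of all genes (adjusted p 0.00196 for Parp9, 0.0118 for Dtx3l and 0.0159 for Hat1, edgeR). Neither share against H4WT was above that of all genes in these libraries. The genes that passed were Kat2b, lower in H4K91R than in H4WT, and Dtx3l, Parp9 and Hat1, higher in H4K91Q than in H4WT. Parp9 was also higher in H4K91Q than in H4K91R. The median log2 change of the 7 was -0.053 in H4K91R against H4WT, 0.12 in H4K91Q against H4WT and 0.22 in H4K91Q against H4K91R. Over all tested genes these medians were -0.030, 0.013 and 0.0054.

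**Figure D1:**
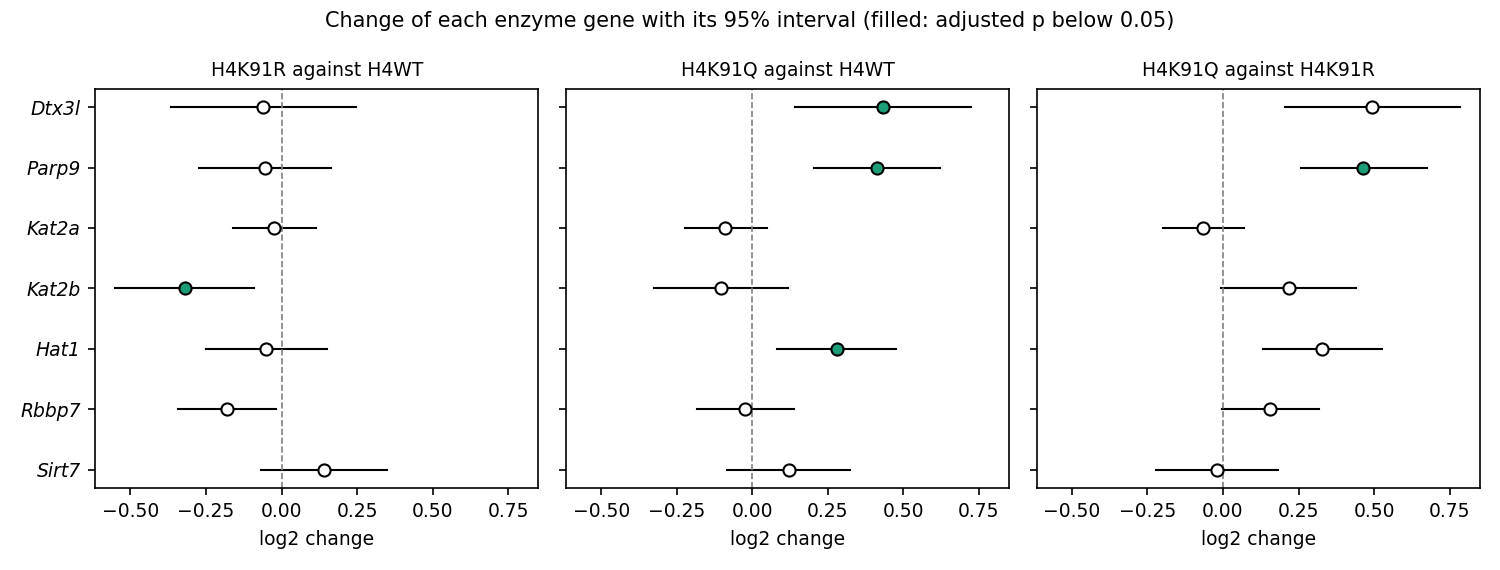
Log2 change of each of the 7 genes in the 3 comparisons (x axis), with bars for the 95% interval from the quasi-likelihood fit to 3 libraries per group. Filled points passed an adjusted p of 0.05: Kat2b lies left of 0 in H4K91R against H4WT, and Dtx3l, Parp9 and Hat1 lie right of 0 in H4K91Q against H4WT. Parp9 is also filled, right of 0, in H4K91Q against H4K91R.

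The 7 genes stood at very different levels. Per kilobase of merged exons of coding transcripts, which allows levels to be compared between genes, Rbbp7 was the highest, at 255.3 ± 14.1 CPM per kb in H4K91R, 284.6 ± 20.3 in H4K91Q and 289.1 ± 16 in H4WT (mean ± SD, n = 3 each). Hat1 followed, at 59.7 ± 4.64, 74.9 ± 6.26 and 61.6 ± 6.49 CPM per kb in H4K91R, H4K91Q and H4WT. Kat2a came next at 24.2 ± 0.604, 23.2 ± 0.530 and 24.6 ± 0.664 CPM per kb in the same groups. Sirt7, Parp9, Kat2b and Dtx3l came after it in that order. Dtx3l was the lowest, at 2.51 ± 0.289 CPM per kb in H4K91R, 3.51 ± 0.294 in H4K91Q and 2.59 ± 0.480 in H4WT. This order was the same in the 3 groups, and no neighbours in it overlapped within a group. Every member was well counted: the lowest single count was 98 reads for Dtx3l in H4WT replicate 1, and the highest was 19269 for Rbbp7 in H4WT replicate 2.

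**Figure D2:**
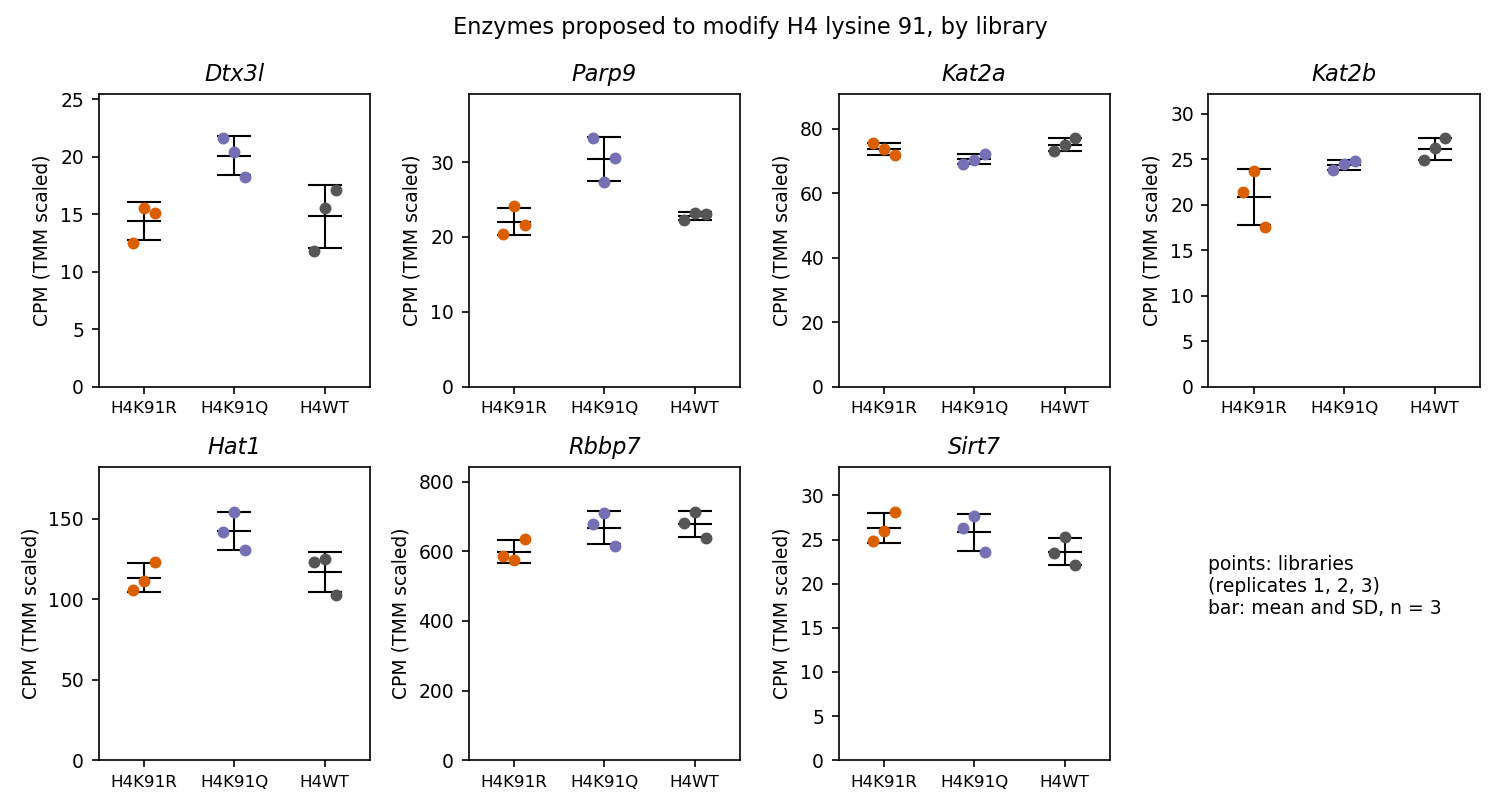
Level of each gene in every library, in CPM on the TMM scale, with 1 panel and 1 linear axis per gene. Points are libraries and bars are group means ± SD (n = 3): the 3 H4K91Q points of Parp9 lie above all others, and the 3 H4K91R points of Kat2b lie below all others.

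Parp9 and Dtx3l, the ADP-ribosyltransferase and ligase pair, were higher in H4K91Q than in H4WT. They are neighbours on chromosome 16 and are read in opposite directions, Dtx3l (Entrez 209200, GRCm38.p6 35926515 to 35939027, minus strand) and Parp9 (Entrez 80285, 35938470 to 35972621, plus strand). The promoter window of Dtx3l, 250 bases before to 50 after its RefSeq start, is printed because an annotated start of each gene lies in it. It spans chr16:35938978-35939277 of GRCm38.p6 and is read from the minus strand. Capitals mark the 17 bases from the RefSeq start of Dtx3l to the start of a GENCODE transcript of Parp9.
Dtx3l promoter: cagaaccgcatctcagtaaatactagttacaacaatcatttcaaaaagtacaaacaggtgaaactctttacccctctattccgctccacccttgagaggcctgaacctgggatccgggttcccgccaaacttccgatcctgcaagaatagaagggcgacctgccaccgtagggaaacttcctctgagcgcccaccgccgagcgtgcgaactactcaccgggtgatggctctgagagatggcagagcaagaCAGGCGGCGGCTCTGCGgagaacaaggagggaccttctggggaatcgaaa
Its GC content was 54.3%, against a median of 52.7% over all promoters in the RefSeq table. Another annotated Parp9 start, at 35938470, which is the RefSeq start, lies outside the window. GENCODE starts both coding transcripts of Dtx3l at 35939151, inside the window. The marked stretch therefore joins a RefSeq start to a GENCODE start, and neither annotation alone has that spacing. The letters GAAA repeated after 2 bases of any kind, as in interferon-stimulated response elements, were searched on both strands. They are in 3.43% of all promoter windows. They are not in this window, nor in the others of the 7 windows listed for 6 of the genes (none was listed for Parp9). The letters TTCNNNGAA, with N for any base, were searched in the same way. They are in 8.29% of all promoter windows and, of the 7 windows, only in that of Sirt7.

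Parp9 had 20.4, 24.1 and 21.7 CPM in H4K91R and 33.2, 27.4 and 30.6 CPM in H4K91Q, against 22.2, 23.2 and 23.0 CPM in H4WT (replicates 1, 2 and 3). All 3 H4K91Q libraries lay above all 6 others, and H4K91R and H4WT overlapped. The log2 change was 0.41 ± 0.097 in H4K91Q against H4WT (SE, 95% interval 0.20 to 0.62), a 1.33-fold rise with an adjusted p of 0.0037 (edgeR). Parp9 passed in this comparison under all 17 alternatives, with adjusted p from 0.000338 to 0.0216. Between the mutants it was higher in H4K91Q than in H4K91R by 0.47 ± 0.096 on the log2 scale (95% interval 0.26 to 0.67), with an adjusted p of 0.018 (edgeR). This is also the test that the effects of the 2 mutants against H4WT differ. It was lost without H4K91R replicate 1 (adjusted p 0.0705, edgeR) and without H4K91Q replicate 1 (adjusted p 0.0798), in a range of 0.00789 to 0.0798. In H4K91R against H4WT the log2 change was -0.053, with a 95% interval of -0.27 to 0.17 and an adjusted p of 0.699 (edgeR).

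Dtx3l had 12.5, 15.6 and 15.1 CPM in H4K91R and 21.6, 20.4 and 18.3 CPM in H4K91Q, against 11.8, 15.5 and 17.1 CPM in H4WT. Again the H4K91Q libraries were all above the other 6, whose groups overlapped. The log2 change was 0.43 ± 0.13 in H4K91Q against H4WT (95% interval 0.14 to 0.72), a 1.35-fold rise with an adjusted p of 0.0179 (edgeR). It passed in 14 of 17 alternatives and was lost without H4K91Q replicate 1 (adjusted p 0.068, edgeR), without H4WT replicate 1 (0.0727) and with counts thinned to equal totals (0.061), in a range of 0.00245 to 0.0727. Against H4K91R the H4K91Q libraries were higher by 0.49 ± 0.13 (95% interval 0.20 to 0.78), which missed the threshold at an adjusted p of 0.0511 (edgeR). In 7 of 17 alternatives that difference passed, with adjusted p from 0.0274 to 0.191 over all 17. H4K91R differed from H4WT by -0.061, with a 95% interval of -0.37 to 0.24 and an adjusted p of 0.755 (edgeR).

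The ratio of the partners was compared as well, and its groups overlapped. The log2 CPM of Dtx3l minus that of Parp9 was -0.62 ± 0.092 in H4K91R, -0.59 ± 0.16 in H4K91Q and -0.64 ± 0.25 in H4WT (SD, n = 3 each). The ratios of H4K91Q and H4WT differed by 0.043 (exact two-sided permutation p 0.9, adjusted over 9 ratio tests 0.9, where 3 against 3 libraries cannot go below 0.1). Exons of the 2 genes overlap on opposite strands by 367 bases, which is 6.41% of the Dtx3l and 10.3% of the Parp9 exon bases. The strand setting of the counting is not given in the sources used here, so reads from that stretch may have been divided between them, and their ratio carries that uncertainty. Sequences of 31 bases shared with other genes made up 1.95% of Dtx3l and were not found in Parp9.

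The genes around the pair, within 200 kb on each side, were looked at after the values of the pair had been seen. Of 11 protein-coding genes in the table there, 9 were tested. Between the mutants 3 of them, Parp9 itself, Parp14 and Hspbap1, were higher in H4K91Q than in H4K91R, and 0 were lower. Of all tested genes, 2.37% were higher and 2.78% lower there. In H4K91R against H4WT, 1 was higher and 3 lower, where 20.9% and 25.1% of all genes were. In H4K91Q against H4WT, 4 were higher and 1 lower, where 22.5% and 23.8% of all genes were. The pair is part of these counts. Parp14, an ADP-ribosyltransferase of the same family, had 9.89 ± 0.473 CPM in H4K91R and 14.8 ± 1.70 CPM in H4K91Q, against 11.3 ± 0.610 CPM in H4WT (mean ± SD, n = 3 each). Its log2 change was 0.39 ± 0.12 in H4K91Q against H4WT (adjusted p 0.0138, edgeR) and 0.58 ± 0.12 in H4K91Q against H4K91R (adjusted p 0.0154). Hspbap1 was lower in H4K91R than in H4WT, with a log2 change of -0.59 ± 0.12 (adjusted p 0.00124, edgeR), and higher in H4K91Q than in H4K91R by 0.47 ± 0.12 (adjusted p 0.0355). Other neighbours differed from H4WT in both mutants: Wdr5b, a paralog of the WD-repeat gene Wdr5, was higher, by 0.81 in H4K91R (adjusted p 0.00536, edgeR) and 0.77 in H4K91Q (0.0062). Kpna1, an importin, had log2 changes of -0.42 in H4K91R (adjusted p 0.000459, edgeR) and -0.46 in H4K91Q (0.000246).

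**Figure D3:**
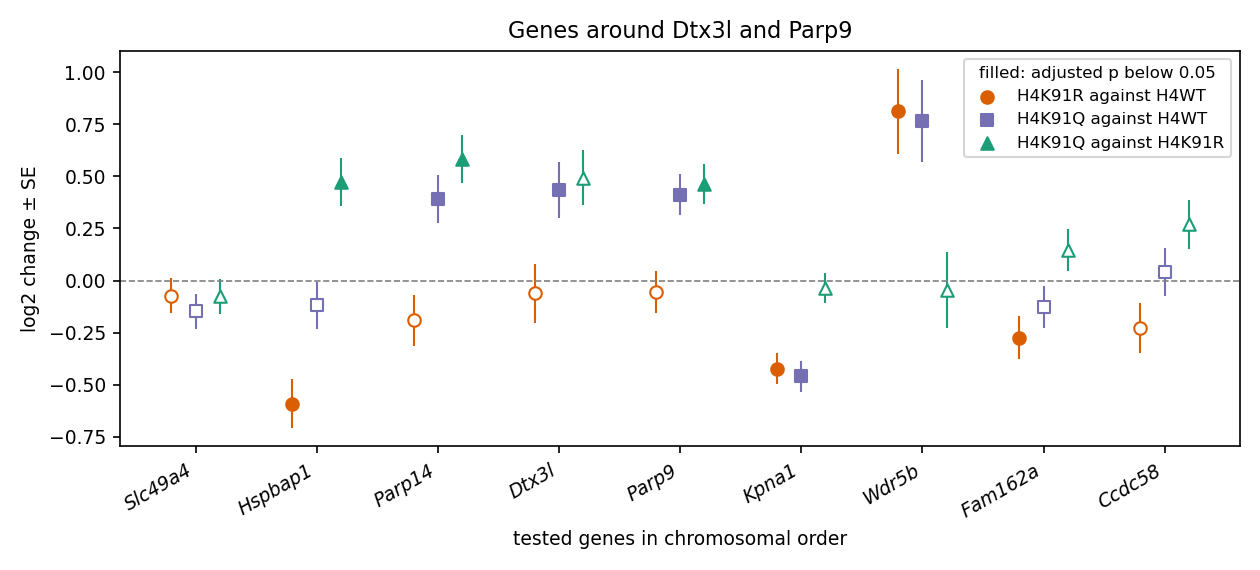
Log2 change of the 9 tested genes within 200 kb of Dtx3l and Parp9, in the order in which they lie on the chromosome, with 1 marker and colour per comparison, filled where the adjusted p was below 0.05, and bars for ± SE (y axis, log2 scale). Parp14, Dtx3l and Parp9 lie above 0 in H4K91Q against H4WT and near or under 0 in H4K91R against H4WT, while Wdr5b is above 0 in both.

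Hat1, the acetyltransferase of new H4 (Entrez 107435, chromosome 2, 71389260 to 71441622), was also higher in H4K91Q than in H4WT. It had 106, 112 and 123 CPM in H4K91R and 142, 154 and 131 CPM in H4K91Q, against 123, 125 and 103 CPM in H4WT. The H4K91Q libraries lay above all others, while H4K91R and H4WT overlapped. The log2 change in H4K91Q against H4WT was 0.28 ± 0.092 (95% interval 0.081 to 0.48), a 1.21-fold rise with an adjusted p of 0.0238 (edgeR). It passed in 13 of 17 alternatives, with adjusted p from 0.00147 to 0.115, and was lost with thinned counts (0.0517) and without H4K91Q replicate 1 (0.0543), H4K91Q replicate 2 (0.105) or H4WT replicate 3 (0.115) (edgeR). Against H4K91R the H4K91Q libraries were higher by 0.33 ± 0.091 (95% interval 0.13 to 0.53), which missed the threshold at an adjusted p of 0.0569 (edgeR) and passed in 6 of 17 alternatives (0.0322 to 0.247). H4K91R differed from H4WT by -0.050, with a 95% interval of -0.25 to 0.15 and an adjusted p of 0.692 (edgeR).

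Rbbp7, the histone-binding partner of Hat1 (Entrez 245688, chromosome X, 162760372 to 162779090), did not pass in any comparison, nor in the joint test (adjusted p 0.109, edgeR). It had 586.5, 573.9 and 636.3 CPM in H4K91R and 677.4, 709.9 and 615.9 CPM in H4K91Q, against 682.1, 713.7 and 639.0 CPM in H4WT. The H4K91R libraries lay under the H4WT libraries, by a narrow gap between the nearest of them, and H4K91Q overlapped both. The log2 change in H4K91R against H4WT was -0.18 ± 0.075 (95% interval -0.34 to -0.018), with an adjusted p of 0.0654 (edgeR, range over 17 alternatives 0.0389 to 0.962). In H4K91Q against H4WT it was -0.023 (95% interval -0.18 to 0.14, adjusted p 0.824, edgeR). The log2 CPM of Hat1 minus that of Rbbp7 was -2.40 ± 0.061 in H4K91R and -2.23 ± 0.028 in H4K91Q, against -2.54 ± 0.086 in H4WT (SD, n = 3 each). Between H4K91Q and H4WT the ratio differed by 0.31 (exact two-sided permutation p 0.1, the smallest possible, adjusted 0.225). Exons of Rbbp7 share 174 bases, 7.42%, with Txlng on the other strand. Txlng had means of 19.3 CPM in H4K91R, 24.1 in H4K91Q and 21.9 in H4WT, far below Rbbp7. Of the 31-base sequences of Rbbp7, 11.6% are also in the pseudogene Gm6382, which has no row in the table, so counts of Rbbp7 are less certain than those of Hat1.

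Kat2b, the paralog of Kat2a (Entrez 18519, chromosome 17, 53566774 to 53672721), was lower in H4K91R than in H4WT. It had 21.4, 23.7 and 17.5 CPM in H4K91R and 23.8, 24.5 and 24.8 CPM in H4K91Q, against 24.9, 26.3 and 27.3 CPM in H4WT. The H4K91R libraries lay under all others, with replicate 3 the lowest. The H4K91Q libraries lay between those of H4K91R and H4WT with no overlap. Both gaps between the nearest libraries were narrow, 23.7 against 23.8 CPM and 24.8 against 24.9 CPM. The log2 change in H4K91R against H4WT was -0.32 ± 0.11 (95% interval -0.55 to -0.091), 0.801-fold, with an adjusted p of 0.0248 (edgeR). It passed in 11 of 17 alternatives, and adjusted p ran from 0.0106 to 0.324. It was lost without H4K91R replicate 3 (adjusted p 0.0878, edgeR), without H4WT replicate 2 (0.0697) or 3 (0.0782), with DESeq2 (0.0576), with the compared groups alone (0.0598) and with library size scaling (0.324). The last also moved the change to -0.14. For H4K91Q against H4WT the log2 change was -0.10 (95% interval -0.33 to 0.12, adjusted p 0.436, edgeR). The difference between the mutants, 0.22, had an interval of -0.0054 to 0.44 and an adjusted p of 0.235 (edgeR), so the effects of the mutants on Kat2b were not shown to differ. Of the 31-base sequences of Kat2b, 15.1% are also in the pseudogene Kat2b-ps, which has no row of its own in the table.

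Kat2a, the acyltransferase of SAGA and ATAC (Entrez 14534, chromosome 11, 100704746 to 100712485), had 75.6, 73.7 and 71.9 CPM in H4K91R and 69.0, 70.3 and 72.2 CPM in H4K91Q, against 73.0, 74.9 and 77.0 CPM in H4WT. H4K91R overlapped both other groups, and the H4K91Q libraries lay just under those of H4WT. The log2 change was -0.024 in H4K91R (95% interval -0.16 to 0.11, adjusted p 0.788, edgeR) and -0.089 in H4K91Q (-0.22 to 0.047, adjusted p 0.268) against H4WT. These were the narrowest intervals among the 7 genes. The log2 CPM of Kat2a minus that of Kat2b was 1.83 ± 0.20 in H4K91R and 1.53 ± 0.0090 in H4K91Q, against 1.52 ± 0.029 in H4WT (SD, n = 3 each). The H4K91R value differed from that of H4WT by 0.31 (exact two-sided permutation p 0.1, the smallest possible, adjusted 0.225), and that of H4K91Q by 0.013 (p 0.6, adjusted 0.9).

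Sirt7, the deglutarylase (Entrez 209011, chromosome 11, 120618371 to 120625014), had 24.9, 26.0 and 28.2 CPM in H4K91R and 26.4, 27.7 and 23.6 CPM in H4K91Q, against 23.5, 25.3 and 22.2 CPM in H4WT. The groups overlapped in every comparison. The log2 change was 0.14 in H4K91R (95% interval -0.069 to 0.35, adjusted p 0.258, edgeR) and 0.12 in H4K91Q (-0.084 to 0.32, adjusted p 0.319) against H4WT. Between the mutants it was -0.020 (-0.22 to 0.18, adjusted p 0.925).

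Libraries of the compared groups did not overlap for 2 of 7 genes in H4K91R against H4WT, Kat2b and Rbbp7, where 55.1% of all tested genes did not overlap. In H4K91Q against H4WT they were 5 of 7, all but Rbbp7 and Sirt7, where again 55.1% did not overlap. Between H4K91Q and H4K91R they were 4 of 7, Dtx3l, Parp9, Kat2b and Hat1, against a background of 25.4%. The size of a log2 change, in either direction, had a median over all tested genes of 0.29 in each mutant against H4WT and of 0.14 between the mutants. Kat2b in H4K91R against H4WT, at -0.32, was at percentile 54.2 of the sizes. Of the changes of H4K91Q against H4WT, Dtx3l was at percentile 65.1, Parp9 at 63.6 and Hat1 at 49. Between the mutants the same 3 genes were at percentiles 89.7, 88.6 and 81.

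For the members that passed the joint test, the genes with the most similar profiles over the 9 libraries were taken from 12921 genes of at least 2 CPM, by the root mean square difference of centred log2 CPM. Those nearest to Parp9 were Zfp442 (0.084), its neighbour Parp14 (0.084) and Resf1 (0.091), with Dtx3l at rank 108 (0.15). Nearest to Dtx3l were Hddc2 (0.084), Arhgef3 (0.11) and Zfp960 (0.12), and Parp9 stood at rank 20 (0.15). Nearest to Hat1 were the splicing factor Srsf3 (0.054), the spindle checkpoint gene Mad2l1 (0.055) and Larp7 (0.055), with Rbbp7 at rank 797 (0.14).

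Genes that belong with the members were described by counts and medians beside the shares given above. Of the interferon list, to which Dtx3l and Parp9 are related as interferon-inducible genes, 30 were tested. In H4K91R against H4WT 13 were lower, with a median log2 change of -0.33 (at an unadjusted p below 0.05, 17 were lower and 1 higher; with library size scaling 10 were lower and 3 higher). In H4K91Q against H4WT 5 were higher and 8 lower, with a median of 0.028, and with library size scaling 13 were higher and 7 lower. Between the mutants 6 of 30 were higher in H4K91Q than in H4K91R, with a median of 0.27, where 2.37% of all tested genes were higher. Psmb8, an immunoproteasome subunit, was higher by 0.96 (adjusted p 0.00624, edgeR) and Ifit3, an antiviral RNA-binding protein, by 0.81 (adjusted p 0.00745). Against H4WT, Tap1, a peptide transporter, had log2 changes of -0.91 in H4K91R (adjusted p 1.41e-05, edgeR) and -0.93 in H4K91Q (adjusted p 1.15e-05). Dtx3l and Parp9 stood at -0.061 and -0.053 in H4K91R and at 0.43 and 0.41 in H4K91Q in the same comparisons. Summed, the list stood at 877.6 to 899.8 CPM in H4K91R and 1015 to 1084 CPM in H4K91Q, against 1146 to 1206 CPM in H4WT. Of 8 markers of immune cells 4 were tested, and 4 were lower in H4K91R and 3 in H4K91Q. Their sum over the 8 was 5.12 to 6.33 CPM in H4K91R and 6.68 to 7.62 CPM in H4K91Q, against 11.9 to 12.6 CPM in H4WT, and 1, 2 and 2 of them had no count in those groups.

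Most pluripotency markers were higher in H4K91Q than in both other groups, as Parp9 was. Of 10 tested, 6 were higher and 1 lower in H4K91Q against H4WT (median log2 change 0.97), and 9 were higher in H4K91Q than in H4K91R (median 1.75). In H4K91R against H4WT 9 were lower (median -1.38). Nanog, a transcription factor of embryonic stem cells, had log2 changes of -0.94 in H4K91R (adjusted p 0.0259, edgeR) and 2.11 in H4K91Q (adjusted p 1.47e-05) against H4WT, and Esrrb, another, of 0.067 (adjusted p 0.85) and 1.77 (adjusted p 2.52e-05). The summed level of the list was 194.5 to 219.3 CPM in H4K91R and 330.7 to 479.4 CPM in H4K91Q, against 304.0 to 391.4 CPM in H4WT. Most of that sum was Klf4, a factor also of other cell types, and Dppa5a. These 2 stood at 142.7 and 36.8 CPM in H4K91R, 142.4 and 103.2 CPM in H4K91Q and 174.3 and 96.7 CPM in H4WT. The median sums, 219.2 CPM in H4K91R, 393.7 in H4K91Q and 325.7 in H4WT, had the direction of most members. The sums of H4K91Q and H4WT overlapped. The part of these markers in the results on Parp9, Dtx3l and Hat1 was not tested.

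Among 15 other PARP family genes, 3 were higher and 6 lower in H4K91R against H4WT (median -0.12), which turned to 6 higher and 3 lower with library size scaling, and 6 were higher and 4 lower in H4K91Q (median -0.035; 7 and 3 with that scaling). Parp6 was higher, by 1.02 in H4K91R and 0.74 in H4K91Q, and Parp3 had log2 changes of -0.80 and -0.88. Between the mutants 2 were higher in H4K91Q, Parp14 and Parp12, an interferon-inducible member, which differed by 0.38 (adjusted p 0.0327, edgeR). Of 4 other Deltex ligases, 3 were higher in both H4K91R (median 1.13) and H4K91Q (median 0.82) against H4WT. Dtx1, a regulator of Notch, rose by 1.53 in H4K91R (adjusted p 1.92e-06, edgeR) and 1.19 in H4K91Q (1.74e-05), and Dtx4 by 1.57 and 1.14. Dtx3l itself had -0.061 and 0.43 there.

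Among 7 genes of H3-H4 handling that work with Hat1 and Rbbp7, 2 were higher and 1 lower in H4K91R against H4WT (median 0.13), and 3 higher and 1 lower in H4K91Q (median 0.21), while library size scaling gave 5 higher and 1 lower in each. Nasp, the chaperone that holds H3-H4 with Hat1, had a log2 change of 0.14 in H4K91R (adjusted p 0.163, edgeR) and 0.46 in H4K91Q (adjusted p 0.000391) against H4WT. Nasp was also higher in H4K91Q than in H4K91R, by 0.32 (adjusted p 0.0359, edgeR), so that H4K91Q was the highest group, as for Hat1. Asf1b, the H3-H4 chaperone of dividing cells, rose by 0.34 in H4K91R and 0.43 in H4K91Q, and Ipo4, the importin of H3-H4, had log2 changes of -0.39 and -0.48. Proliferation markers stood at summed levels of 2659 to 2737 CPM in H4K91R and 2780 to 2844 CPM in H4K91Q, against 2590 to 2692 CPM in H4WT. This sum was highest in H4K91Q, as Hat1 was, and the part of these markers in the result on Hat1 was not tested. Of 14 such markers, 2 were higher (Pcna by 0.36 and Mcm6 by 0.37) and 1 lower (Rrm2, -0.18) in H4K91Q against H4WT. Of all tested genes, 22.5% were higher and 23.8% lower there. Most of the 14 markers passed in neither direction, and their median log2 change was 0.10, against 0.013 over all tested genes. With library size scaling 9 were higher in H4K91R and 10 in H4K91Q.

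Of 29 other subunits of SAGA and ATAC, the complexes of Kat2a and Kat2b, 3 were higher and 5 lower in H4K91R against H4WT (median -0.034), which turned to 10 higher with library size scaling. In H4K91Q 4 were higher and 2 lower (median -0.044), which turned to 10 and 1 with library size scaling and to 2 and 3 with thinned counts. Tada1, a core subunit of SAGA, rose by 0.35 in H4K91R (adjusted p 0.00581, edgeR) and 0.45 in H4K91Q (0.000924), and Zzz3, a subunit of ATAC, had a log2 change of -0.36 in each. Of 11 tested genes of lysine breakdown and glutaryl-CoA, the donor for glutarylation, 4 were lower in H4K91R (median -0.21) and 3 in H4K91Q (median -0.14) against H4WT, while library size scaling gave 1 higher and 1 lower in each. Aldh7a1, an aldehyde dehydrogenase of that route, had log2 changes of -0.42 (adjusted p 8.85e-05, edgeR) and -0.36 (adjusted p 0.000291), and Ogdh of -0.21 and -0.29. Of 6 other sirtuins, 3 were higher in H4K91R (median 0.34) and 4 in H4K91Q (median 0.40) against H4WT, and with library size scaling 5 and 4. Sirt5, known as a deglutarylase in mitochondria, had a log2 change of 0.34 in H4K91R (adjusted p 0.133, edgeR) and 0.63 in H4K91Q (adjusted p 0.00812). Of 13 genes of 53BP1 and BRCA1-A recruitment, the route in which DTX3L acts, 2 were higher and 2 lower in each mutant against H4WT (medians 0.038 and 0.068), while library size scaling gave 5 higher in H4K91R, and 6 higher and 1 lower in H4K91Q. Trp53bp1, which encodes 53BP1, had log2 changes of 0.38 in H4K91R (adjusted p 0.00129, edgeR) and 0.20 in H4K91Q (adjusted p 0.0507). H2ax, the histone phosphorylated at breaks, rose by 0.39 (adjusted p 0.00301, edgeR) and 0.33 (adjusted p 0.00841), and Rnf168, a ligase for H2A, had changes of 0.15 (adjusted p 0.151) and 0.34 (adjusted p 0.00363). Kmt5a, the H4 lysine 20 methyltransferase, had changes of -0.28 (adjusted p 0.00415, edgeR) and -0.35 (adjusted p 0.000795). Of 7 other lysine acetyltransferases, 0 passed against H4WT in either mutant (edgeR; 0 also with limma-voom, and 0 and 1 with DESeq2), while library size scaling gave 2 higher in each. At an unadjusted p below 0.05 there were 0 in H4K91R and 2 in H4K91Q. Kat7, the acetyltransferase of origin licensing and the one of them with the most counts, had log2 changes of -0.16 (adjusted p 0.146, edgeR) and -0.21 (adjusted p 0.0688).

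**Figure D4:**
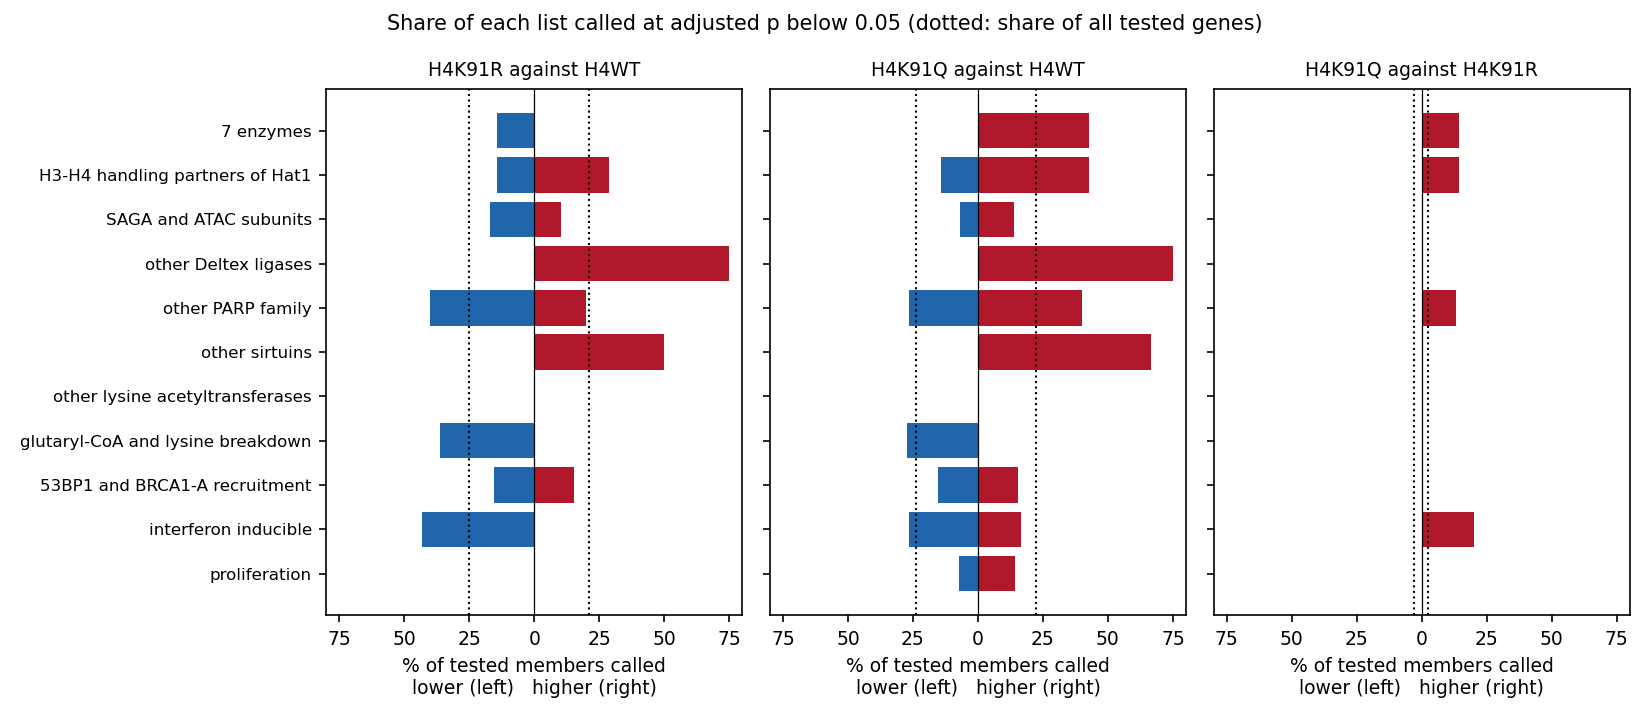
Share of the tested genes of each list that passed an adjusted p of 0.05 in each comparison, higher and lower apart, beside the share of all 14761 tested genes. The interferon list has 6 of 30 genes higher in H4K91Q than in H4K91R, against 2.37% of all genes.

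Libraries scaled by total counts alone, without TMM, moved the median log2 change of all genes to 0.15 in H4K91R and 0.18 in H4K91Q against H4WT, and the split of higher to lower genes to 5031 to 2013 and 5557 to 2069, where TMM gave 3092 to 3705 and 3314 to 3516. Under this scaling Dtx3l, Parp9 and Hat1 still passed in H4K91Q against H4WT, Kat2b in H4K91R did not, and Sirt7 passed in H4K91R (log2 change 0.32, adjusted p 0.0161, edgeR) and H4K91Q (0.29, adjusted p 0.024). Between the mutants the median stayed near 0, at -0.0095.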

How the data were processed

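Polyadenylated RNA of 9 libraries, 3 per group, was measured. The authors deposited expected counts for 24100 Entrez gene IDs, all of them whole numbers. The submitters' processing notes name Salmon 0.8.2, the build mm10 and DESeq2, without a role; whether the authors rounded the estimated counts is not given in the sources used here, and neither are the annotation and the strand setting. Salmon shares reads between genes with like sequence. A RefSeq table of GRCm38.p6, the assembly of mm10, matched 24045 IDs to a symbol. Promoters are from the RefSeq table of that build, and exons and H4 codons from GENCODE M21 (GRCm38).

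The 7 genes and the gene lists were chosen with earlier results of these data known. Of 214 listed names, 212 matched a symbol and 211 had a row in the table. The lists are H3-H4 handling partners of Hat1, SAGA and ATAC subunits, other Deltex ligases, other PARP family, other sirtuins, other lysine acetyltransferases, glutaryl-CoA and lysine breakdown, 53BP1 and BRCA1-A recruitment, interferon inducible, proliferation, histone H4, and markers of neurons, neural progenitors, smooth muscle and mesenchyme, pluripotency, immune cells and endothelium.

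Counts were filtered with filterByExpr by group (minimum count 10, 14761 genes kept), scaled by TMM (factors 0.911 to 1.06) and fitted with the quasi-likelihood model of edgeR 4.0.16 (R 4.3.3) to all 9 libraries, with 1 mean per group and a shared spread (biological coefficient of variation 8.82%). Tests were two-sided, and p-values were Benjamini-Hochberg adjusted over all tested genes. Ratios of partners were tested by exact permutation. Total counts ran from 8970553 to 28887501, median 16364686, so a count of 0 allows up to 3 counts, 0.111 to 0.367 CPM depending on the library, for counting error only. The fit was tested on simulated data, with changed genes drawn from tested genes of all levels. Over the comparisons it recovered 4 to 6% of 1.2-fold changes, 46 to 62% of 1.5-fold changes and 94% of 4-fold changes. A gene that did not pass may therefore have changed by a small fold. These rates are for 50 changed genes per fold among 14334 to 14480 tested. In the data, 46% and 46.3% of genes passed in H4K91R and H4K91Q against H4WT. Recovery with so large a share of changed genes was not tested. Alternatives were RLE and library size scaling, DESeq2 1.42.0, limma-voom (limma 3.58.1), no filter, the compared groups alone, a replicate block, counts thinned to the smallest total, and each of the 9 libraries left out; ratios of partners were also taken with another prior count.

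A rule took from each list up to 2 genes per comparison that passed, ranked by adjusted p, from a mean of 1 CPM (where none passed, up to 2 with the highest level), and the 3 genes with the profile most like each member that passed the joint test. The text names a part of the genes the rule took, chosen after their values were seen; the others stand in the counts, and not every gene is reported here. Rrm2, Vim, Klf4, Dppa5a, the H4 genes of the printed codons and the genes around Dtx3l and Parp9 were named outside the rule after their values were seen. No IDs or columns were left out of the fit.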

Additional observations from a re-analysis of the deposited data

Results flagged for a closer look

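Parp9 stood out because the effects of the 2 mutants on it, measured against the same H4WT libraries, differed by a test of the difference itself. Its log2 change was 0.41 ± 0.097 in H4K91Q and -0.053 ± 0.10 in H4K91R against H4WT. The difference, 0.465 ± 0.096, had an adjusted p of 0.018 (edgeR quasi-likelihood test, Benjamini-Hochberg), and all 3 H4K91Q libraries were above all 3 H4K91R libraries. Without H4K91R replicate 1 or H4K91Q replicate 1 it no longer passed (adjusted p 0.0705 and 0.0798, range over 17 alternatives 0.00789 to 0.0798). Of the other 6 genes, 0 passed this test with edgeR, while Dtx3l and Hat1 had an unadjusted p below 0.05, DESeq2 passed both and limma-voom passed Dtx3l.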

How the results depend on the processing

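Over the alternatives, 305 values of single genes kept their direction and side of the threshold, 17 gained and 15 lost the threshold, and 20 changed sign. Of the 7 genes, 0 passed in H4K91R against H4WT with DESeq2 or with the compared groups alone, and 1 passed in H4K91Q against H4WT with thinned counts. Between the mutants 3 passed with DESeq2, with no filter and with the compared groups alone, and 2 with limma-voom. With a library left out, 0 to 2 passed in H4K91R and 1 to 3 in H4K91Q against H4WT, 0 to 3 between the mutants and 2 to 4 in the joint test. Over all genes, leaving out a library gave 5851 to 6835, 5837 to 6961 and 188 to 1093 calls in those comparisons and 6356 to 7691 in the joint test, against 6797, 6830, 761 and 7470. The lowest between the mutants were 188 without H4K91R replicate 2, 202 without H4K91Q replicate 2, 298 without H4K91Q replicate 1 and 410 without H4K91R replicate 1.

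The changes of sign were all in log2 changes that did not pass. In H4K91R against H4WT, library size scaling gave 0.123 for Dtx3l, 0.131 for Parp9, 0.161 for Kat2a, 0.135 for Hat1 and 0.00504 for Rbbp7. In H4K91Q against H4WT it gave 0.0816 for Kat2a, 0.066 for Kat2b and 0.147 for Rbbp7. Kat2a in H4K91R against H4WT was 0.00554 with RLE, 0.00766 with DESeq2 and 0.0049 with the compared groups alone. With a library left out, the H4K91R changes against H4WT ran from -0.172 to 0.0408 for Dtx3l, -0.121 to 0.00456 for Parp9, -0.042 to 0.000708 for Kat2a and -0.126 to 0.0116 for Hat1, Rbbp7 in H4K91Q against H4WT from -0.0713 to 0.0327, and Sirt7 between the mutants from -0.0796 to 0.0416. Library size scaling moved the median of all genes in the same direction; the cause was not tested.

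Replicate numbers are shared by the groups. The deviations of same-numbered libraries correlated from -0.163 to 0.198, with 5 of 9 pairs over 0.1, and those of other pairs from -0.286 to 0.265. Between H4K91Q and H4WT, same-numbered libraries correlated at 0.172, 0.198 and 0.141 (replicates 1, 2 and 3), and others from -0.239 to 0.0359. In all, 5 of 9 libraries correlated best with their own number. The labels state no pairing, so the main fit had no block, and these values do not settle whether the numbers are pairs. With a replicate block 6751, 6840 and 1011 genes passed in the comparisons and 7412 in the joint test, and 2 of the 7 genes passed between the mutants, Parp9 and Dtx3l.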

Other observations

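Within the groups, Hat1, Rbbp7 and Sirt7 shared an order of libraries: replicate 3 was the lowest in H4K91Q and H4WT and the highest in H4K91R, as for 1405 of 14761 tested genes (9.52%). Kat2a and Kat2b had the reverse order, as had 1529 genes (10.4%). The labels name no batch.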
